A study of Homo sapiens with 54 samples.

Results

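hMSN-like cells extracted 1 h after the last of 5 daily doses of 1 µM dopamine (Chronic 1 h) were compared with hMSN-like cells given PBS in the same experiment (PBS). The libraries were chosen by their titles, 3 for each group, and made up 6 of the 53 libraries of the series with values here. hMSN-like cells are cultures differentiated from H9, an established human embryonic stem cell line, with SMAD pathway inhibitors and then activin A, and kept in a maturation medium that held BDNF and GDNF. No transgene, deletion or sorting step was described for any group, so each library is a bulk profile of a mixed culture of 1 line. For a chronic dose, part of the medium was exchanged for dopamine dissolved with ascorbic acid, all medium was then removed and replaced by maturation medium, and this was repeated on each day.

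For direct tests, 3 libraries of the same 1 µM experiment were given a single dose and extracted 1 h later (Acute 1 h). Another 3 were extracted 24 h after the last of the 5 doses (Chronic 24 h). Both groups, and 3 libraries extracted 24 h after a single dose (Acute 24 h), also entered the filter, scaling and spread of the main test. A second experiment with 1 mM dopamine gave 3 PBS and 3 Chronic 1 h libraries for the dose test. The fit of that test held all 30 libraries of both experiments. The chronic cultures were extracted on a later day of culture than the acute ones, and the day on which the PBS cultures were extracted, and whether PBS held ascorbic acid, were not stated. Dopamine, its vehicle, the repeated change of medium and the age of the culture therefore cannot be told apart in these comparisons. Nothing in the labels said that the replicates came from separate differentiations, so p-values measure the spread between these samples, which may be technical.

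Dopamine acts on medium spiny neurons of the striatum through D1-type receptors, which raise cAMP, and D2-type receptors, which lower it. cAMP, calcium and ERK signals converge on transcription factors such as CREB and SRF that are already bound to DNA, and within minutes these switch on the immediate early genes, among them the FOS, JUN, EGR and NR4A families. Their products are themselves transcription factors that act on a later set of genes, while phosphatases, RNA-binding proteins and kinases made in the same wave shut the signal down. Repeated stimulation is known to weaken parts of this response in striatal tissue.

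The libraries held between 7145571 and 12911212 exon reads in the Chronic 1 h group and between 9584706 and 11026492 in the PBS group. Introns took 15.3%, 23.6% and 17.2% of the gene reads in Chronic 1 h replicates 1 to 3 and 22.3% to 23.6% in PBS. Replicate 2 stood apart in both groups, with 12.4% (PBS) and 12.8% (Chronic 1 h) of its exon reads on mitochondrial genes, against 4.25% to 6.20% in the other 4 libraries, and PBS replicate 2 had at least 1 exon read on 16085 genes against 20989 and 21299 in the other two. A gene with 2000 exonic bases and 3 reads had a TPM (a share of all transcripts, scaled by length) of 0.443 to 0.653 in these 6 libraries, and smaller TPM values were below what they could resolve. The 13 mitochondrially encoded genes summed to TPM values of 175156 to 426627 in PBS and 201459 to 441551 at Chronic 1 h. TPM values of other genes are lowered where this sum is larger, whereas the tests used read counts scaled by TMM.

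Of 16541 genes tested on exon reads, 427 passed an adjusted p-value of 0.05 (2.58%), and 289 of them rose (1.75%) while 138 fell (0.834%). Counting only those whose level changed 2-fold or more, with a mean TPM of 1 or more in either group, left 184 DEGs (1.11%), of which 129 rose (0.78%) and 55 fell (0.333%). The TPM values of the 2 groups did not overlap for 182 of the 184 DEGs, against 17.7% of all genes tested. Most changes were moderate, since the median log2(fold change) was 1.34 among DEGs that rose and -1.30 among those that fell, and 23 and 10 of them, respectively, exceeded 2 in size. In bulk RNA, fewer cells of a type and less RNA per cell cannot be told apart, and this holds for each transcript below.

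The spread was estimated over all 15 libraries of the 1 µM experiment, and a fit of the 6 libraries alone called 31 DEGs, while that same fit with the replicate number as a block called 205. Without both replicates 2 there were 99 DEGs, and leaving out single libraries of the 2 groups gave between 87 (without Chronic 1 h replicate 1) and 147, with the direction of all 184 unchanged in the refits without 1 library. On total gene reads, which add intron reads, 806 of 22537 genes passed (3.58%), 358 higher (1.59%) and 448 lower (1.99%), so the balance of directions differed from that on exon reads, and 146 of the 184 DEGs passed there. The same thresholds on these reads gave 139 DEGs that rose (0.617%) and 74 that fell (0.328%).

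**Figure D1:**
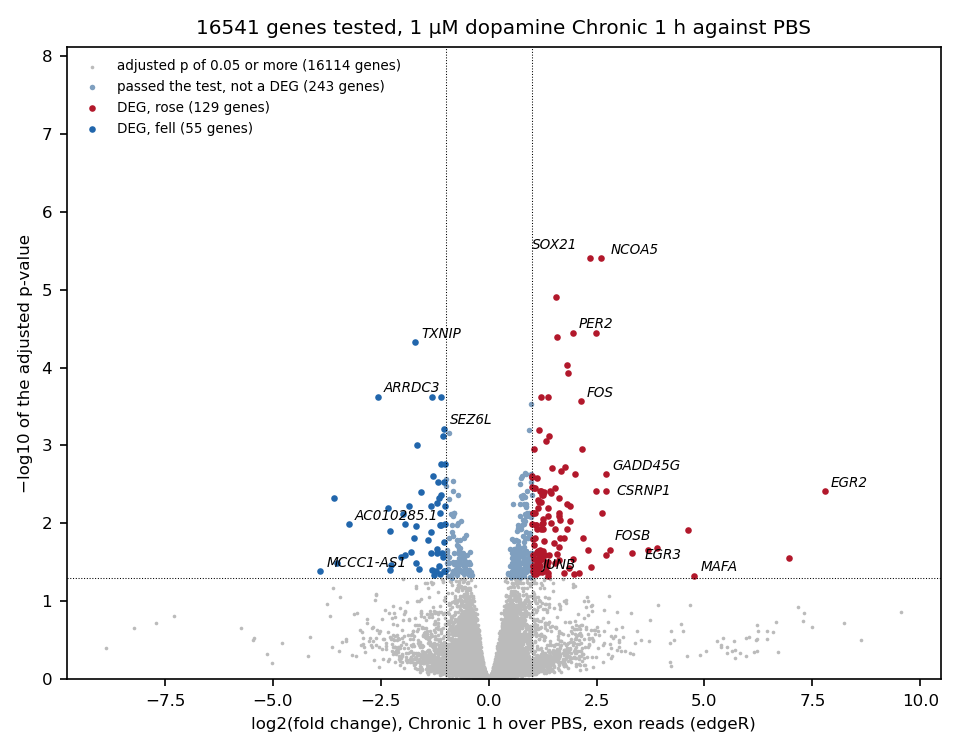
Each point is 1 of the 16541 genes tested, with log2(fold change) of Chronic 1 h over PBS on the x axis and the negative log10 of the adjusted p-value on the y axis, and dotted lines mark the thresholds. The 129 DEGs that rose lie to the right and the 55 that fell to the left, with SOX21, NCOA5, PER2 and TXNIP among the highest points. The fitted fold change of EGR2, which had no exon read in PBS, depends on a prior count.

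Immediate early transcription factors were counted by family, beside the 1.75% of all genes tested that rose and the 0.834% that fell. In the EGR and NAB list, 3 of 6 measured members rose (EGR1, EGR2 and EGR3) and none fell, in the FOS and JUN list 4 of 7 rose (FOS, FOSB, FOSL2 and JUNB) and none fell, and of the 3 NR4A genes NR4A1 and NR4A3 rose and NR4A2 fell. The medians of the lists were 2.90, 1.99 and 1.46 on the log2 scale, beside 0.0025 over all genes tested. The region just upstream of 3 of these genes is shown because these genes are known targets of cAMP signals. Each is the 200 bases before the transcription start in RefSeq on GRCh38.p14, on the gene's strand, at chr5:138465279-138465478 (+) for EGR1, chr14:75278628-75278827 (+) for FOS and chr19:45467796-45467995 (+) for FOSB, with motif matches in capitals.
EGR1: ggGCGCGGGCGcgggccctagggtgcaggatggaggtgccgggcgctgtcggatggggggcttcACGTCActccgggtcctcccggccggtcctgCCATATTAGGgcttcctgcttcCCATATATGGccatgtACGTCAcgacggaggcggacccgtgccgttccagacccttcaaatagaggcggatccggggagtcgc
FOS: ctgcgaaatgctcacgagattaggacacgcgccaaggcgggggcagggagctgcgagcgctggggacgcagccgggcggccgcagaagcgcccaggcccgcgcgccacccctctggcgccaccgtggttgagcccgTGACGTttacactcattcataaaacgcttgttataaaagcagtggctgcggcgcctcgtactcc
FOSB: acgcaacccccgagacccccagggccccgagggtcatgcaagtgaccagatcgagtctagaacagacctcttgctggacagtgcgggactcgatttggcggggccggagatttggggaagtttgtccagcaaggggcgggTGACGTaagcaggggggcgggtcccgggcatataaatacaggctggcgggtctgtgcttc

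The capitals mark TGACGT, the core of the cAMP response element (2 matches before EGR1, 1 before FOS and 1 before FOSB), the CArG box bound by SRF (2 before EGR1) and GCGNGGGCG, the EGR motif (1 before EGR1). TGANTCA, the AP-1 motif, and TGACGTCA, the full cAMP response element, which contains TGACGT, were also searched on both strands. Over the 250 bases before the start, TGACGT was present in 15 of the 101 DEGs that rose and had a window (14.9%), in 4 of the 28 that fell (14.3%), in 9.98% of 11831 tested genes with a window and in 7.1% of all 35116 windows. The CArG box was present in 2 of the 101 (1.98%) against 1.01% of tested genes, the EGR motif in 9 (8.91%) against 13.9%, the AP-1 motif in 4 (3.96%) against 3.67% and TGACGTCA in 4 (3.96%) against 2.76%. These matches describe letters in a window and were not tested.

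EGR1, a zinc finger factor used as a marker of neuronal activity, had TPM values of 11.5, 6.90 and 11.9 in PBS and 55.2, 50.0 and 55.5 at Chronic 1 h. The groups were far apart, and the log2(fold change) was 2.48 ± 0.21 (SE, with an adjusted p of 3.55e-05 from edgeR). Its relative EGR2 had no exon read in any PBS library and 27, 20 and 28 reads at Chronic 1 h, which made it at least 8.69-fold higher against a floor of 3 reads per library. EGR3 had TPM values of 0.222, 1.26 and 0.160 in PBS and 7.11, 4.84 and 6.04 at Chronic 1 h (log2(fold change) 3.31, adjusted p = 0.0241, edgeR). PBS replicate 2 decided much of the size of that value for EGR3, which was 5.10 without it and 2.88 without PBS replicate 1 or 3. All 3 Chronic 1 h libraries were above all PBS libraries for each of these genes. EGR4 had TPM values of 0 to 0.170 in PBS and 1.30 to 2.20 at Chronic 1 h and did not pass (adjusted p = 0.112), and the corepressor genes NAB1 and NAB2 did not pass either.

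FOS, the partner of JUN proteins in AP-1, had TPM values of 7.36, 7.73 and 6.20 in PBS and 32.7, 22.8 and 38.2 at Chronic 1 h (2.13 ± 0.24, adjusted p = 2.72e-04, edgeR). FOSB, whose long-lived splice form accumulates in the striatum under repeated drug exposure, was at 0.201, 0.719 and 0.870 in PBS and at 3.60, 3.14 and 6.17 at Chronic 1 h. The exon reads do not separate its splice forms. JUNB was at 31.1, 10.7 and 25.1 in PBS and at 135, 50.4 and 130 at Chronic 1 h, so that replicate 2 was the lowest of each group and the groups still did not overlap. FOSL2 rose by 1.77 on the log2 scale, whereas FOSL1 (1.99, adjusted p = 0.227), JUN (-0.48, adjusted p = 0.0683) and JUND (0.08) did not pass.

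The nuclear receptors of the NR4A family went in different directions. NR4A3 had TPM values of 6.89, 7.17 and 7.59 in PBS and 18.5, 18.9 and 20.9 at Chronic 1 h. NR4A1 was at 13.2, 3.42 and 11.8 in PBS and at 36.7, 16.2 and 37.4 at Chronic 1 h (adjusted p = 0.0430, and 0.0714 on total gene reads). NR4A2, which is needed for dopaminergic neurons, was lower at Chronic 1 h, with 27.5, 28.9 and 21.3 in PBS and 16.01, 10.7 and 17.8 at Chronic 1 h (-0.82, adjusted p = 0.0416). Its call was lost with the replicate block (adjusted p = 0.0660).

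Of 14 other early transcription factors, 3 rose and 1 fell, beside 1.75% and 0.834% of all genes tested. CSRNP1, an AXIN1-induced nuclear factor, had TPM values of 13.4, 4.84 and 10.5 in PBS and 73.1, 26.8 and 82.5 at Chronic 1 h (2.71 ± 0.42, adjusted p = 0.00385). MYC rose by 1.23 and IER3 by 0.78 on the log2 scale, and KLF6 fell by 1.06. The call of MYC was lost on total gene reads (adjusted p = 0.0532, edgeR). NPAS4, the activity-dependent factor of neurons, was near the detection limit, with 0 to 0.434 in PBS and 0.897 to 1.27 at Chronic 1 h. The calls of EGR1, EGR2, FOS, FOSL2, NR4A3, CSRNP1 and KLF6 held without each of the 6 libraries in turn, while those of EGR3, FOSB, JUNB, NR4A1, NR4A2, MYC and IER3 were lost in at least 4 of these 6 refits (highest adjusted p between 0.0821 and 0.169).

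**Figure D2:**
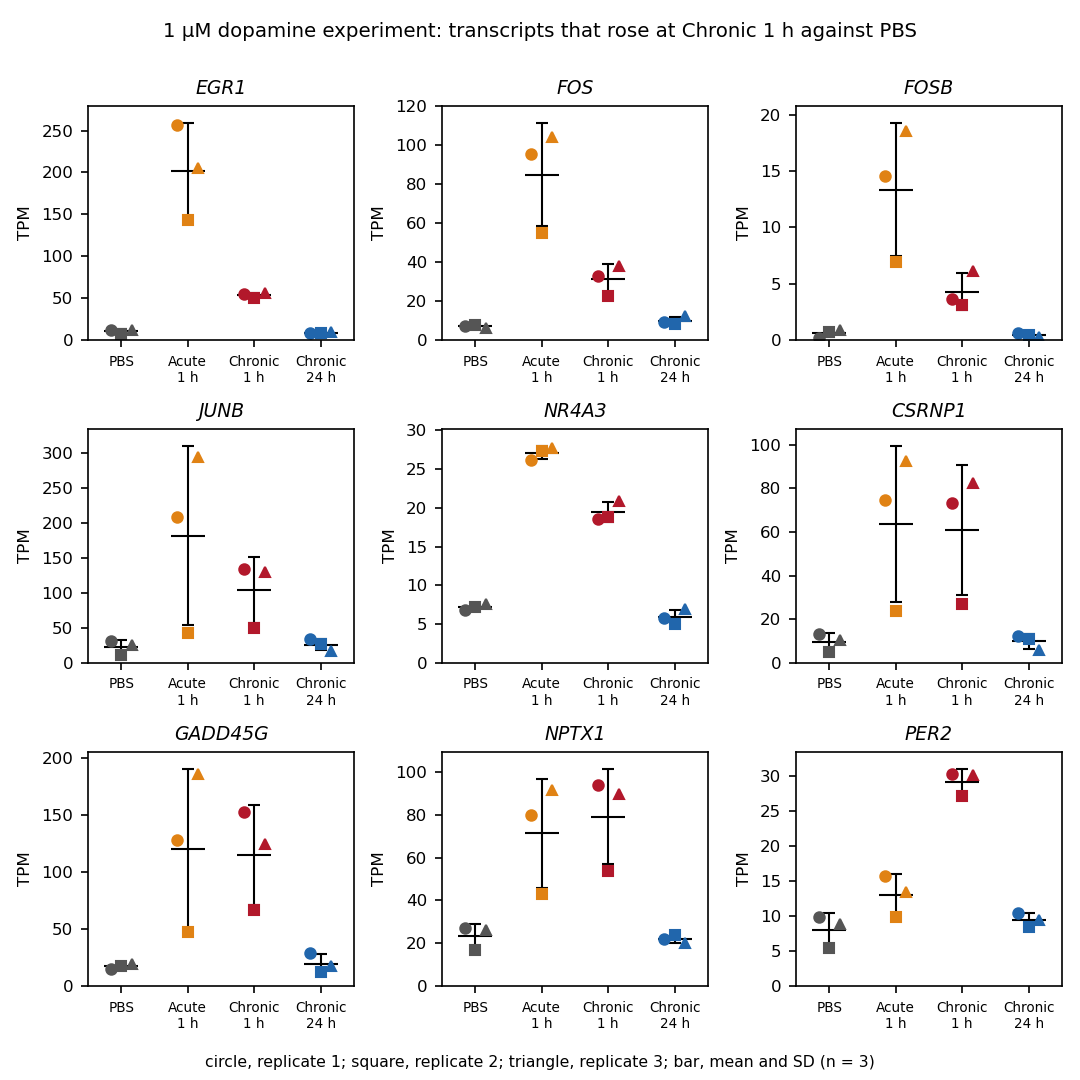
TPM of 9 genes that rose at Chronic 1 h is plotted for each library of the 1 µM experiment in PBS, Acute 1 h, Chronic 1 h and Chronic 24 h, with the mean and SD of 3 libraries. The Chronic 1 h libraries lie above all PBS libraries in each panel, EGR1 and FOS lie below Acute 1 h, and PER2 lies above it.

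Genes that neurons switch on with activity were next. In the list of activity-induced synaptic and secreted genes, 4 of 17 measured members rose, beside 1.75% of all genes tested, and none fell. RASD1, ARC and NPTX1 were among the 4. RASD1, a Ras-like GTPase that dampens adenylyl cyclase signals, had TPM values of 8.09, 11.2 and 10.1 in PBS and 84.9, 37.1 and 63.2 at Chronic 1 h (2.62 ± 0.46, adjusted p = 0.00733). NPTX1, a secreted pentraxin that gathers AMPA receptors at synapses, was at 27.2, 16.7 and 26.1 in PBS and at 94.1, 54.0 and 89.8 at Chronic 1 h (1.81 ± 0.17, adjusted p = 9.13e-05). ARC, the capsid-like regulator of AMPA receptor uptake, had TPM values of 17.1, 6.78 and 12.6 in PBS and 63.0, 19.5 and 71.6 at Chronic 1 h (2.10, adjusted p = 0.0437), and its call was lost with the replicate block (0.0541), on total gene reads (0.0727) and in 5 of the 6 refits without 1 library (up to 0.162). BDNF (0.05) and HOMER1 (-0.20) did not pass.

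Of 14 kinases and coactivators of the CREB pathway, 3 rose, beside 1.75% of all genes tested, and none fell. Over this list 8 were above 0, with a median log2(fold change) of 0.054, and 2 rose on total gene reads. SIK1B, a salt-inducible kinase that restrains CRTC coactivators, had TPM values of 29.8, 5.29 and 28.9 in PBS and 73.7 to 137 at Chronic 1 h (2.49, adjusted p = 0.00380). SIK1 is a near-identical copy of SIK1B on the same chromosome, and the assignment of reads between the 2 genes is uncertain. SIK2 and CRTC3 rose by 0.56 and 0.66, both with calls that were lost in 5 of the 6 refits without 1 library (up to 0.0846 and 0.125). CRTC3 was at 0.29 on total gene reads and did not pass there (adjusted p = 0.363, edgeR). The CREB-family repressor CREM did not pass (0.20, adjusted p = 0.809).

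Of 14 DUSP, SPRY and SPRED genes, which feed back on ERK, 11 were above 0 and 1 rose, beside 1.75% of all genes tested. This was SPRED3, an inhibitor of Ras-ERK signalling, with a log2(fold change) of 0.57 (adjusted p = 0.0365, edgeR). Its adjusted p was 0.104 on total gene reads and up to 0.133 when single libraries were left out. The dual-specificity phosphatase genes DUSP1 (1.01, adjusted p = 0.138), DUSP5 (1.37, adjusted p = 0.0896) and DUSP14 (0.90, adjusted p = 0.0919) were above 0 without passing. Among 13 GADD45 genes and p53 targets, GADD45G and BTG2 rose. GADD45G, a stress sensor linked to DNA demethylation, was at 14.9, 17.9 and 18.9 in PBS and at 152, 66.5 and 125 at Chronic 1 h (2.71 ± 0.39, adjusted p = 0.00231). GADD45B had TPM values of 5.58, 7.64 and 6.42 in PBS and 16.04, 5.92 and 10.1 at Chronic 1 h, and the groups overlapped.

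In the list of TENT5, ZFP36 and BTG genes, which act on mRNA tails and decay, BTG2 rose by 0.75 and BTG1 fell by 0.68 among 10 measured members. Over all genes tested 1.75% rose and 0.834% fell. TENT5B, a poly(A) polymerase, had TPM values of 3.44, 0 and 1.18 in PBS and 4.84, 2.38 and 6.94 at Chronic 1 h and did not pass (adjusted p = 0.424). The calls of BTG1 and BTG2 were each lost in at least 4 of the 6 refits without 1 library (up to 0.102). BTG1 also did not pass on total gene reads (adjusted p = 0.243, edgeR).

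Among 16 circadian clock genes, PER2 rose and NR1D1 was lower, beside 1.75% of all genes tested that rose and 0.834% that fell. PER2, a period protein of the clock's repressor arm whose promoter is known to answer cAMP, had TPM values of 9.85, 5.42 and 8.85 in PBS and 30.2, 27.2 and 30.2 at Chronic 1 h (1.94 ± 0.17, adjusted p = 3.55e-05). Its 3 treated libraries were close together and about as high in replicate 2 as in the others. NR1D1, the receptor that represses BMAL1, was at 26.8 to 33.0 in PBS and at 13.2 to 18.0 at Chronic 1 h (-0.91, adjusted p = 0.0323, and 0.0558 with the replicate block). Its call was also lost on total gene reads (adjusted p = 0.141, edgeR). PER1 (0.80) did not pass (adjusted p = 0.143).

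SOX21 and NCOA5 had the lowest adjusted p-values of the genes named here. They and the other genes of this paragraph lay outside the lists and were named after their values were seen. SOX21, a SOX-family factor of neural progenitors, had TPM values of 29.4, 22.9 and 29.2 in PBS and 149, 97.99 and 160 at Chronic 1 h (2.34 ± 0.15, adjusted p = 3.88e-06). Its divergent antisense neighbour SOX21-AS1 rose by 1.84, and without stated strand the reads of overlapping partners cannot be told apart. NCOA5, a nuclear receptor coregulator, was at 14.3, 15.8 and 17.4 in PBS and at 117, 71.0 and 97.3 at Chronic 1 h (2.59 ± 0.18, adjusted p = 3.88e-06). These are more than the distances between replicates of either group. PDP1, the phosphatase that activates pyruvate dehydrogenase, and ZC3H12C, an RNase of the regnase family, rose by 1.37 and 1.21.

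Regulators of neural development were also among the DEGs and were named after their values were seen. The proneural factor NEUROG1 had TPM values of 13.3, 11.3 and 18.2 in PBS and 56.4, 30.3 and 43.4 at Chronic 1 h (1.64, adjusted p = 0.00478), and FEZF2, a forebrain factor of deep-layer neurons, rose by 1.01. NEUROD4 had a log2(fold change) of 1.99 with an adjusted p of 0.0452, and 0.0560 with the replicate block. ZIC2, a zinc finger factor of the dorsal neural tube and forebrain, fell by 1.10, with 273, 216 and 263 in PBS and 114, 108 and 115 at Chronic 1 h. PROX1, a factor of neuronal progenitors, and GLRB, the beta subunit of the glycine receptor, had log2(fold change) values of -1.33 and -1.22. Both calls were lost in at least 5 of the 6 refits without 1 library (up to 0.102 and 0.155). GLRB was also lost with the block (0.0717). Their values on total gene reads were -0.83 and -0.52, and neither passed there (adjusted p of 0.132 and 0.263, edgeR).

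In the Notch list, which carries lateral inhibition between progenitors, 3 of 19 measured members rose, beside 1.75% of all genes tested, and none fell. The ligand gene DLL1 had TPM values of 71.7, 28.3 and 57.0 in PBS and 201, 83.9 and 189 at Chronic 1 h (1.65, adjusted p = 0.0155). The target genes HEY1 and NRARP rose by 0.98 and 0.87, whereas HES1 did not pass (0.41, adjusted p = 0.251). In the TGF-beta and BMP list the inhibitor SMAD7 (1.21) and the target ID2 (0.87) rose among 28 members. PMEPA1, a TGF-beta-induced gene outside the list, rose by 1.37. HEY1, ID2 and PMEPA1 passed without each library in turn, while DLL1, NRARP and SMAD7 did not (up to 0.0846, 0.119 and 0.0702). NRARP also did not pass on total gene reads (adjusted p = 0.0676, edgeR). The Wnt list had no member past the test among 36.

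Smaller groups had few calls, and are set beside the 1.75% of all genes tested that rose and the 0.834% that fell. In the SRF, actin and YAP list AMOTL2 (1.05) and VCL (0.65), which encodes vinculin, rose among 20 members. Among 26 collagens and matrix genes only TNC passed, and it was lower (-0.62), as was ADAMTS1 (-0.95) among 13 matrix proteases. All 4 of these calls were lost in at least 5 of the 6 refits without 1 library (up to 0.152). AMOTL2 (adjusted p = 0.0862), TNC (0.226) and ADAMTS1 (0.181) also did not pass on total gene reads (edgeR), while VCL did. MMP1, a collagenase, stayed too low to be tested, at 0.377, 1.86 and 1.23 in PBS and 3.71, 0.221 and 0.450 at Chronic 1 h. ATF4 rose by 0.69 as the single call among 17 genes of the unfolded protein response, and its adjusted p was 0.0501 without PBS replicate 1. No member passed among 12 heat shock genes, 11 NRF2 targets or 3 measured metallothioneins.

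Splicing regulators showed both directions. Of 14 CLK kinases and SR factors, SRSF3, SRSF6, SRSF7 and TRA2B rose, beside 1.75% of all genes tested. CLK1 and CLK4 were lower, beside 0.834% of all genes tested that fell. CLK1, the kinase that phosphorylates SR proteins, had TPM values of 152, 130 and 134 in PBS and 40.2, 44.1 and 42.8 at Chronic 1 h (-1.66 ± 0.21, adjusted p = 9.74e-04). SRSF3 was at 58.4, 32.8 and 54.4 in PBS and at 127, 94.2 and 129 at Chronic 1 h (1.33 ± 0.17, adjusted p = 8.84e-04). Both groups of values were fully separate, also in replicate 2. CLK4 (-0.79) was lost with the replicate block (0.0606), and CLK4 and TRA2B were lost in at least 5 of the 6 refits without 1 library (up to 0.164). CLK genes and SR genes are known to retain introns or to carry poison exons, which exon reads per gene do not resolve.

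Genes of ribosome assembly were counted next. In a list of 70 ribosome biogenesis genes that was compiled after values were seen, and so was not tested, 12 rose, 1 fell and 61 were above 0, with a median of 0.29. Of all 16541 genes tested 1.75% rose and 8322 were above 0. MAK16, a 60S assembly factor, had TPM values of 8.34, 6.71 and 7.39 in PBS and 19.8, 26.7 and 20.1 at Chronic 1 h (1.65, adjusted p = 0.00906). LYAR rose by 1.43, PNO1 by 1.28, NIP7 by 1.25 and UBTF, the activator of RNA polymerase I, by 0.86, while TAF1D, a subunit of its initiation complex, fell by 1.35. Without both replicates 2, only 3 of the 70 rose. In a list of 26 tRNA and mitochondrial RNA modification genes, also compiled after values were seen, 7 rose and none fell. LCMT2, which acts in wybutosine synthesis on tRNA, was at 3.59, 1.30 and 2.27 in PBS and at 10.4, 7.35 and 12.6 at Chronic 1 h, and TRMT10C, a subunit of mitochondrial RNase P, rose by 1.42.

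Zinc finger genes with ZNF names were counted after their values were seen. On chromosome 19, where most of the KRAB type lie in clusters, 14 of 236 tested rose (5.93%) and none fell, with a median of 0.24, and on the other chromosomes 16 of 261 rose (6.13%) and 1 fell, with a median of 0.19. Over all genes tested 1.75% rose, and among protein-coding genes on chromosome 19 without a ZNF name 15 of 816 rose (1.84%), with a median of 0.08. ZNF436 had TPM values of 28.4, 17.9 and 26.0 in PBS and 76.8, 59.8 and 65.2 at Chronic 1 h (1.55 ± 0.12, adjusted p = 1.24e-05). GZF1, a related repressor, rose by 1.59. These genes have close copies, and without both replicates 2 only 5 and 4 of them rose.

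Of 5 tested arrestin-domain genes 2 fell, beside 0.834% of all genes tested, in a list compiled after values were seen. TXNIP, which binds thioredoxin and curbs glucose uptake, had TPM values of 1162, 738 and 966 in PBS and 245, 222 and 390 at Chronic 1 h (-1.70 ± 0.15, adjusted p = 4.65e-05). ARRDC3, an adaptor for receptor ubiquitination, was at 110, 115 and 120 in PBS and at 15.1, 18.4 and 23.5 at Chronic 1 h (-2.57 ± 0.28, adjusted p = 2.36e-04). Both genes fell without each library in turn. ARRDC4, a relative of TXNIP, had a log2(fold change) of -0.54 and did not pass (adjusted p = 0.143).

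**Figure D3:**
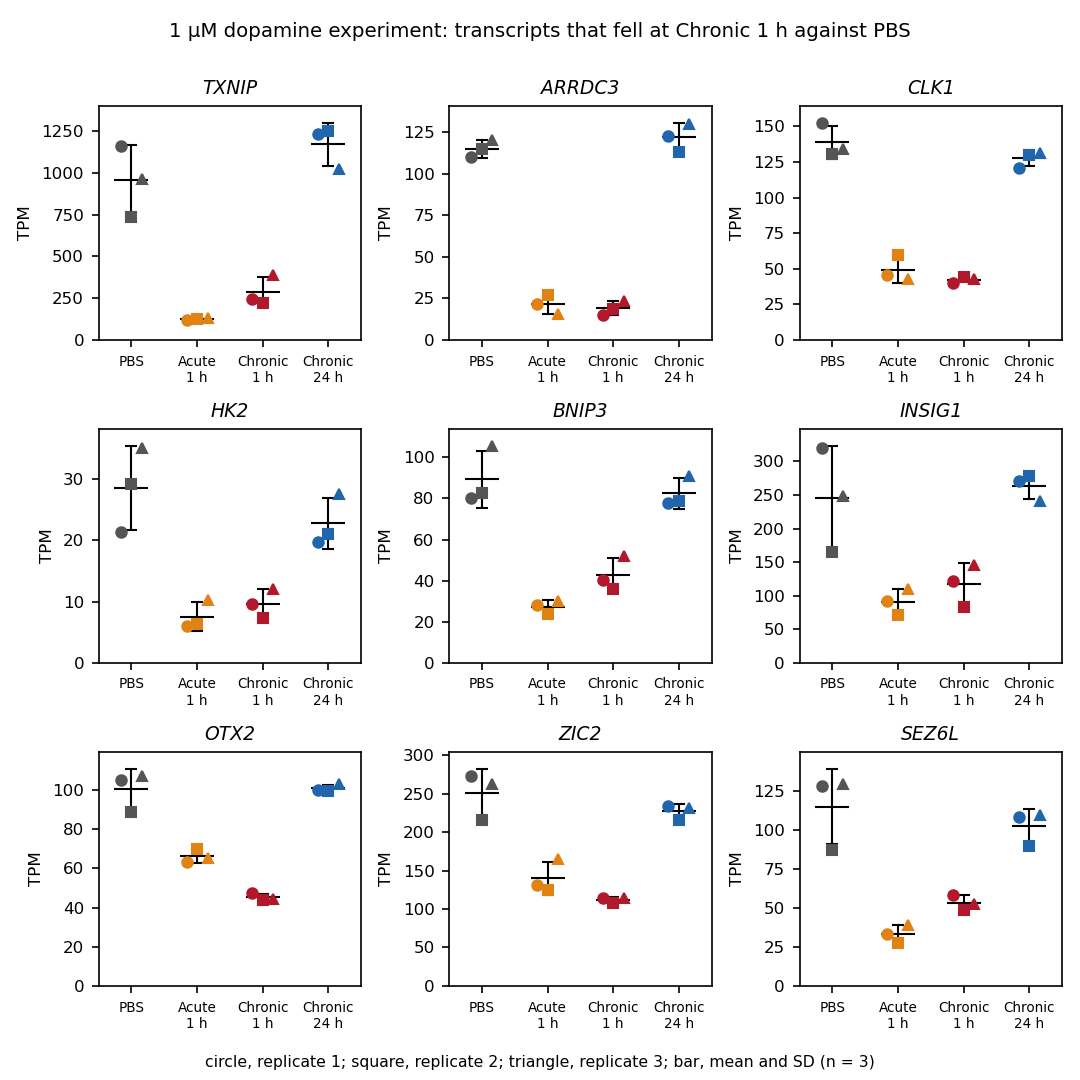
TPM of 9 genes that fell at Chronic 1 h is plotted for each library of the 1 µM experiment in PBS, Acute 1 h, Chronic 1 h and Chronic 24 h, with the mean and SD of 3 libraries. The Chronic 1 h libraries lie below all PBS libraries in each panel, and TXNIP and SEZ6L lie above Acute 1 h.

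Targets of hypoxia-inducible factors and glycolytic genes were among those that fell. In the list of HIF targets outside glycolysis 5 of 32 fell (BNIP3, SLC2A3, KDM3A, STC2 and VEGFA), beside 0.834% of all genes tested, and none rose, with a median of -0.40. BNIP3, a mitophagy receptor, had TPM values of 80.0, 82.7 and 105 in PBS and 40.5, 35.9 and 52.1 at Chronic 1 h (-1.04 ± 0.16, adjusted p = 0.00299). Of 23 genes of glycolysis and pyruvate, 3 fell (HK2, PDK1 and SLC2A3), and all 23 were below 0 with a median of -0.29. HK2, a hexokinase, was at 21.4, 29.1 and 34.98 in PBS and at 9.68, 7.36 and 11.98 at Chronic 1 h (-1.56 ± 0.25, adjusted p = 0.00400). PGK1 (-0.38) and ALDOA (-0.06), abundant enzymes of the pathway, did not pass. BNIP3, KDM3A, HK2 and PDK1 held without each library in turn, while SLC2A3, STC2 and VEGFA did not (up to 0.214), and STC2 was also lost with the replicate block (0.0590). SLC2A3 (adjusted p = 0.0532), STC2 (0.300) and VEGFA (0.203) did not pass on total gene reads either (edgeR).

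Among the regulators of this pathway, EPAS1, which encodes HIF-2 alpha, rose from 4.85, 1.96 and 4.03 in PBS to 13.8, 9.02 and 8.71 at Chronic 1 h (1.64, adjusted p = 0.00733), and HIF3A was lower (-0.56, adjusted p = 0.0320, up to 0.137 without 1 library). HIF1A did not pass (-0.39). In the cholesterol and fatty acid list 3 of 22 fell (INSIG1, MSMO1 and SCD), beside 0.834% of all genes tested, and none rose, with a median of -0.29. INSIG1, the sterol-sensing retention factor of SREBP, had TPM values of 320, 166 and 248 in PBS and 122, 83.7 and 146 at Chronic 1 h (-1.01 ± 0.14, adjusted p = 0.00175). The call of SCD (-0.44) was lost in all 6 refits without 1 library (up to 0.109) and on total gene reads (adjusted p = 0.320, edgeR).

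**Figure D4:**
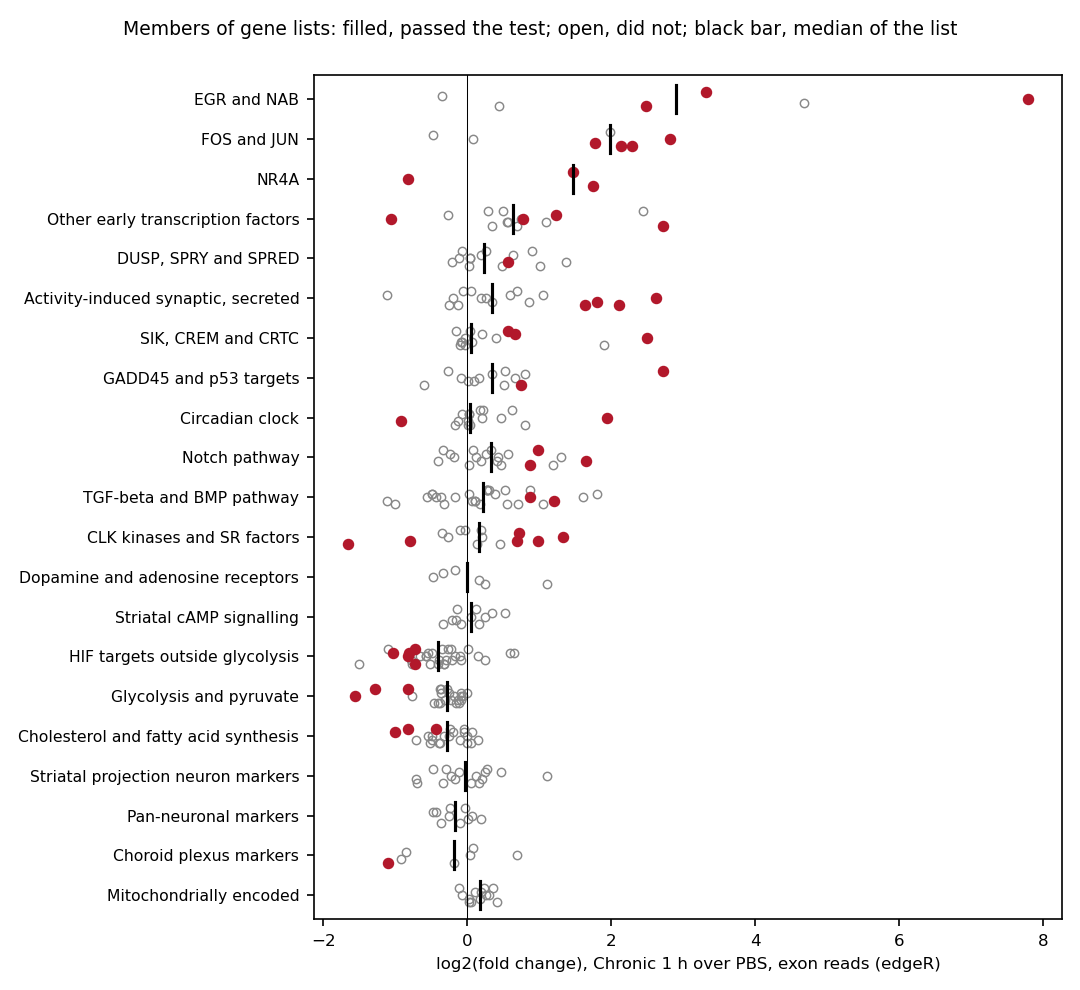
Each circle is a measured member of 1 of 21 gene lists, placed by its log2(fold change) of Chronic 1 h over PBS, filled where it passed the test, with a black bar at the median of the list. The medians of the EGR, FOS and NR4A lists lie above 1, those of the HIF target, glycolysis and cholesterol lists lie between -0.40 and -0.29, and the receptor and striatal lists hold no filled circle.

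Non-coding RNAs made up a large part of the DEGs that fell. Of the 55, 28 were protein-coding and 23 were lncRNAs, whereas 5 of the 129 that rose were lncRNAs. Over all tested genes, 33 of 1807 lncRNAs fell (1.83%) and 7 rose (0.387%), against 98 (0.685%) and 281 (1.96%) of 14305 protein-coding genes. The median log2(fold change) of lncRNAs was -0.23 on exon reads, -0.14 on total gene reads and -0.32 without both replicates 2. All 23 kept their sign on total gene reads and 14 of them passed there, and the part in this of the lower intron share of Chronic 1 h replicates 1 and 3 was not tested.

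The DEGs with the largest fall were mostly non-coding. AC010285.1 had TPM values of 22.2, 26.9 and 26.9 in PBS and 2.70, 3.06 and 2.08 at Chronic 1 h, and CELF2-AS1 had 21.5, 11.1 and 16.3 in PBS and 3.74, 1.94 and 3.59 at Chronic 1 h. MCCC1-AS1 had 79 exon reads in the PBS group and 5 at Chronic 1 h, a ratio of 15.5 (95% exact interval 6.36 to 49.0, counting error only). For Z83745.1 the ratio was 11.6 (5.40 to 29.8) and for AC004765.1 10.8 (4.70 to 30.4). AC013394.1, GAS6-AS1, the pseudogene MED15P9 and SPAG8 had log2(fold change) values between -2.29 and -2.04, but on total gene reads those of MED15P9 and AC013394.1 were -0.99 and -1.56. Without both replicates 2 MED15P9 was at -1.55, and AC013394.1 ranged from -2.81 to -1.76 without single libraries. Several are named as antisense to coding genes, whose reads cannot be told apart from theirs without strand. Of these 9 genes, only CELF2-AS1 and Z83745.1 passed without each library in turn (up to 0.201), and AC004765.1 (0.0576) and MED15P9 (0.0609) were lost with the replicate block. Z83745.1 (adjusted p = 0.0515) and AC004765.1 (0.0586) did not pass on total gene reads (edgeR).

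Genes with the largest rise were also mostly rare transcripts. CHRNA10, a nicotinic receptor subunit, had no exon read in PBS and 12, 4 and 33 at Chronic 1 h, at least 4.88-fold higher against 3 reads per library (adjusted p = 0.0277, and 0.0543 with the replicate block). MAFA, a bZIP factor, had 5 reads in PBS and 153 at Chronic 1 h, a ratio of 31.2 (95% exact interval 13.1 to 97.6), and its call was lost with the block (0.0517). The ratios were 26.5 (10.1 to 99.2) for AC079594.2, 15.3 (7.18 to 39.0) for SERPINB8 and 12.9 (6.58 to 29.0) for CRISPLD2. IQCN rose from 0.240, 0.574 and 0.694 in PBS to 3.48, 3.75 and 2.61 at Chronic 1 h. None of the calls in this paragraph held without each library in turn (up to 0.152). MAFA (adjusted p = 0.0944) and SERPINB8 (0.065) also did not pass on total gene reads (edgeR).

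Receptor and striatal signalling genes had no call. Of the dopamine and adenosine receptor genes 6 were tested and none passed. DRD1 had TPM values of 2.21, 0 and 2.40 in PBS and 2.77, 1.62 and 4.69 at Chronic 1 h, and DRD2 had 2.44, 3.39 and 3.42 in PBS and 2.52, 1.06 and 3.23 at Chronic 1 h. The groups overlapped for both genes. ADORA2A was at 0.577 to 3.91 in PBS and at 0.624 to 2.20 at Chronic 1 h. PPP1R1B, which encodes DARPP-32, had TPM values of 7.70, 9.45 and 10.1 in PBS and 11.3, 7.57 and 11.7 at Chronic 1 h. None of 11 striatal cAMP genes, 13 RGS, GRK and arrestin genes or 20 glutamate and GABA-A receptor genes passed.

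The label of these cells was checked against markers. The 17 striatal projection neuron markers summed to TPM values of 160 to 194 in PBS and 138 to 157 at Chronic 1 h, with PDYN at 0 in 5 of the 6 libraries and BCL11B at 25.8 to 42.1. The 10 glutamatergic and cortical markers summed to 1767 to 1924 in PBS and 1469 to 1555 at Chronic 1 h, and 7 choroid plexus markers to 2198 to 2792 and 1818 to 2477, of which TTR took 1700 to 2589. On this scale per length the cortical markers were thus more abundant than the striatal ones in all 6 libraries. Larger sums were those of 13 astrocyte and radial glia markers, 3245 to 4252 in PBS and 3029 to 3723 at Chronic 1 h. The 17 cycling cell markers summed to 2151 to 2604.5 and 2195 to 2584. The 11 GABAergic and ganglionic eminence markers summed to 87.8 to 154 and 143 to 184. These sums do not give shares of cell types, since the lists differ in size. No striatal marker passed the test, and NKX2-1, a factor of the ventral forebrain, was at 0 in all 6 libraries.

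Single markers of other types moved. TBR1, a cortical glutamatergic factor, fell by 0.92 (182, 140 and 178 in PBS, 91.1, 75.3 and 88.9 at Chronic 1 h), and OTX2, a factor of the choroid plexus and anterior neuroectoderm, fell by 1.10 (105, 89.0 and 107 in PBS, 47.3, 44.0 and 44.5 at Chronic 1 h). GAD1, which makes GABA, had TPM values of 8.08, 5.73 and 7.28 in PBS and 2.75, 2.75 and 3.62 at Chronic 1 h (-1.16, adjusted p = 0.0357), and its call was lost with the block (0.0535). No member passed among 10 pan-neuronal, 13 astrocyte and radial glia, 6 oligodendrocyte, 11 mesenchymal, 4 interneuron and 17 cycling cell markers or 13 mitochondrially encoded genes. The part of cell composition in the results above was not tested.

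A direct test asked whether the fifth dose gave the same levels as a single dose. Between Chronic 1 h and Acute 1 h, 199 genes passed (1.2%), 92 higher (0.556%) and 107 lower (0.647%) at Chronic 1 h. EGR1 had TPM values of 256, 143 and 206 at Acute 1 h, above the 50.0 to 55.5 of Chronic 1 h (-1.86 ± 0.20, adjusted p = 0.00145). FOS was at 95.5, 54.9 and 104 at Acute 1 h (-1.40 ± 0.22, adjusted p = 0.00799), and NR4A2 at 40.0, 39.5 and 44.4 (-1.48 ± 0.20, adjusted p = 0.00278), the latter above PBS after a single dose and below it after the fifth. FOSB (-1.57, adjusted p = 0.172), EGR3 (-1.54), JUNB (-0.72) and CSRNP1 (-0.02) did not pass. The Notch targets HEY1 (-0.78), NRARP (-0.84) and HES1 (-1.16) and the BMP target ID2 (-0.66) were lower at Chronic 1 h. Some markers of other cell types also passed this test, beside 1.2% of all genes tested. They were 3 of 17 cycling cell, 2 of 7 choroid plexus and 1 of 13 astrocyte and radial glia markers. A further 1 of 10 pan-neuronal, 1 of 4 interneuron and 1 of 11 mesenchymal markers passed. No striatal, ganglionic eminence, glutamatergic or oligodendrocyte marker did. VIM of the radial glia list was 0.93 higher at Chronic 1 h (adjusted p = 0.00145, edgeR, and past the test without each of the 15 libraries in turn). TTR of the choroid plexus list was 0.62 higher (adjusted p = 0.0300, edgeR, lost without 4 of them). The part of cell composition in this comparison was not tested.

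PER2 differed the other way, with 15.7, 9.84 and 13.4 at Acute 1 h against 27.2 to 30.2 at Chronic 1 h (1.22 ± 0.17, adjusted p = 0.00278). IER3 (1.02) and VCL (0.74) were also higher at Chronic 1 h, and GADD45A, which did not pass against PBS, was higher by 0.73. Among transcripts that fell, TXNIP was at 121, 126 and 128 at Acute 1 h and so lay below its Chronic 1 h level (1.18 ± 0.15, adjusted p = 0.00220), as did SEZ6L, a neuronal membrane protein (0.71), and the lncRNA AL683813.2 (0.95, lost without 6 of the 15 libraries, up to 0.0845). In the glycolysis list 9 of 23 genes differed, among them PGK1 (1.12) and ALDOA (1.51), both higher at Chronic 1 h. Of the 184 DEGs, 6 passed this test.

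The fit of the Chronic 1 h and Acute 1 h libraries alone called 0 genes in edgeR (1109 at an unadjusted p below 0.05), against 697 by DESeq2 over all 15 libraries. EGR1, NR4A2, HES1, PER2, PGK1 and TXNIP passed without each of the 15 libraries in turn, while FOS (0.0563), IER3 (0.0629) and SEZ6L (0.0616) were lost without Chronic 1 h replicate 1 and ALDOA (0.0530) without Chronic 1 h replicate 3, and SEZ6L, HES1, HEY1, NRARP, ID2 and VCL did not pass on total gene reads. HEY1 and VCL were each lost without 3 libraries and GADD45A without 4, ID2 without 14 and NRARP without 13 (up to 0.243), and ID2 also with the replicate block (0.0618).

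A second direct test asked whether the change was still present a day later. Chronic 1 h differed from Chronic 24 h in 322 genes (1.95%), with 256 higher (1.55%) and 66 lower (0.399%) at Chronic 1 h. Since both this test and the choice of DEGs used the same Chronic 1 h libraries, the 90 of 129 DEGs that rose and 31 of 55 that fell that also passed here are given as a description. EGR1 had TPM values of 7.76, 8.73 and 9.59 at Chronic 24 h, in the range of PBS, and NCOA5 had 14.3, 14.5 and 13.6. TXNIP was at 1232, 1254 and 1025 and ARRDC3 at 123, 113 and 130 at Chronic 24 h, also near PBS. AC079594.2 was an exception, with 2.38, 5.27 and 7.09 at Chronic 24 h and 2.06, 4.67 and 4.40 at Chronic 1 h (-0.30, adjusted p = 0.899).

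The last direct test set the change at 1 µM against the change at 1 mM, each over the PBS libraries of its own experiment. It was passed by 16 of 18390 genes (0.087%), 4 with a more positive (0.0218%) and 12 with a more negative (0.0653%) change at 1 µM. ARRDC3 fell at 1 µM, whereas its TPM values in the 1 mM experiment were 150, 116 and 90.6 in PBS and 274, 269 and 339 at Chronic 1 h (difference of log2(fold change) -3.82 ± 0.69, adjusted p = 0.0163). NPTX1 was at 39.2, 38.4 and 42.5 in PBS and at 54.4, 44.5 and 45.1 at Chronic 1 h in the 1 mM experiment, a smaller change than at 1 µM (1.61 ± 0.24, adjusted p = 0.00250). HEY1 (1.30) and NEUROG2 (0.91) had more positive changes at 1 µM. ADAMTS1 (-2.33), TNC (-1.21), SEZ6L (-1.27) and the protocadherin gene PCDHB4 (-2.17) had more negative changes at 1 µM. The 2 experiments differed in depth and in PBS levels, so dose and experiment cannot be told apart, and the ARRDC3 and PCDHB4 calls were lost without 1 µM Chronic 1 h replicate 1 (both 0.0750). On total gene reads NPTX1 (0.0658), TNC (0.0509), SEZ6L (0.147) and NEUROG2 (0.214) did not pass this test.

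**Figure D5:**
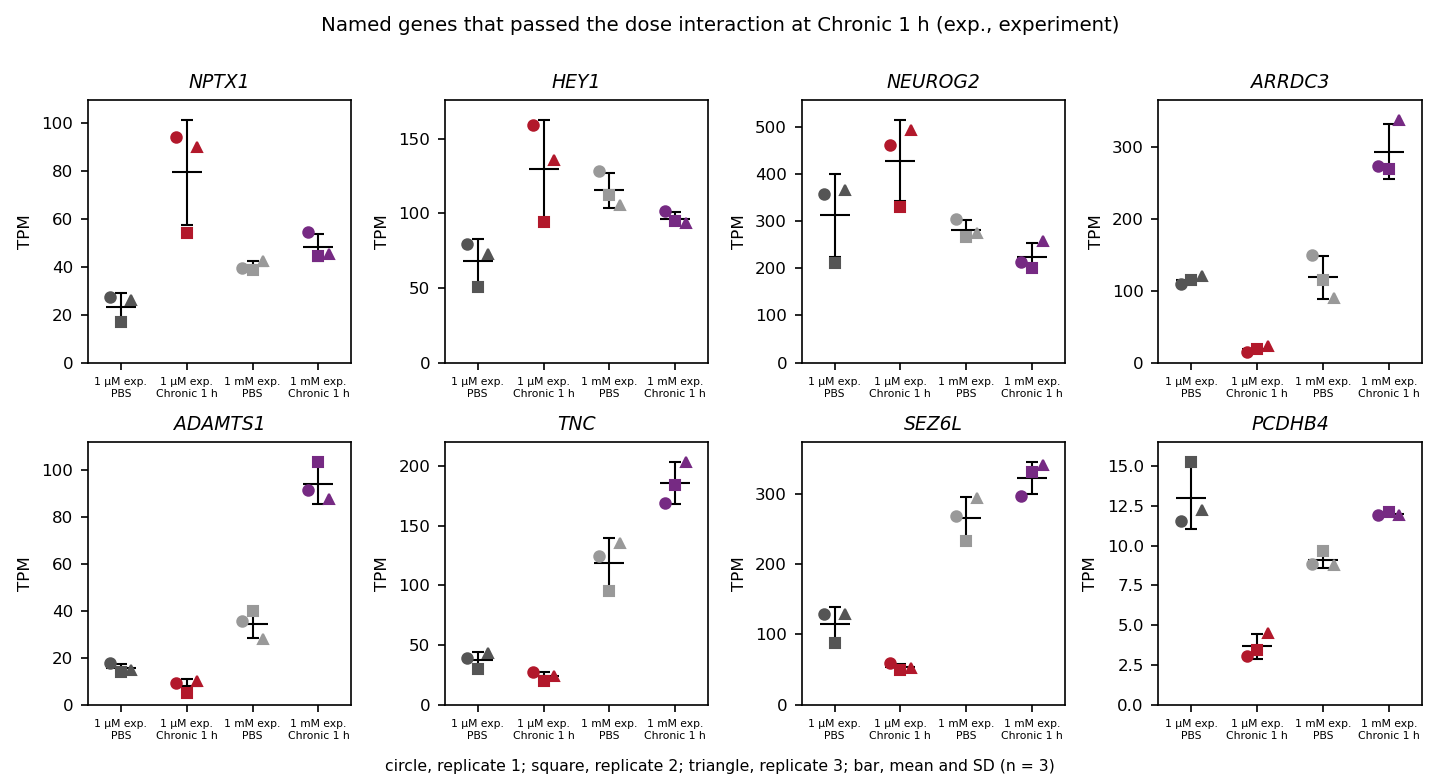
TPM of the 8 named genes that passed the dose interaction is plotted for each PBS and Chronic 1 h library of the 1 µM and the 1 mM experiment, with the mean and SD of 3 libraries. ARRDC3 lies below PBS at 1 µM and above PBS at 1 mM, and NPTX1 is raised further over its PBS libraries at 1 µM than at 1 mM.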

How the data were processed

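RNA-seq libraries of H9 hMSN-like cells were used as the authors deposited them, as 1 table per library. Per the study's methods, the authors trimmed reads and mapped them to GRCh38 (hg38 in the labels) with CLC Genomics Workbench at its default settings. The deposited counts were whole numbers of exon reads, intron reads and total gene reads per gene, and the deposited TPM values were computed by the authors from exon reads. Strand and which of 2 sequencing providers made each library were not given in the sources used here. Columns of the 6 libraries and of 24 others were read by title. Genes with an exon length of 0 (21617 of 60676) cannot hold exon reads.

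Total exon reads were filtered with filterByExpr (minimum count 10, minimum total 15), scaled by TMM and tested with edgeR 4.0.16 (quasi-likelihood, Benjamini-Hochberg adjustment over all genes tested), with the 15 libraries of the 1 µM experiment in 1 fit, and with both dose experiments for the interaction. A DEG had an adjusted p below 0.05, a log2(fold change) of 1 or more in size and a mean TPM of 1 or more in one of the groups. DESeq2 1.42.0, total gene reads, unique exon reads, other filters, thinned reads, a replicate block and leaving out each library were alternatives, some of them added after the data were seen. In data simulated for this comparison, edgeR recovered 137 of 200 changed genes (53% of 2-fold and 84% of 4-fold changes) with 8 false calls among 16206 genes. The simulated libraries were independent, had no replicate 2 set apart, and only genes above a minimum mean count were changed. A fit of the 2 groups alone recovered 117 of the 200 there, but passed only 31 of the 184 DEGs in the real libraries. The simulated rates therefore do not carry over to the real libraries.

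Same-numbered PBS and Chronic 1 h libraries deviated together (residual correlations 0.181, 0.290 and 0.163). PBS replicate 1 with Chronic 1 h replicate 3 (0.246) and PBS replicate 3 with Chronic 1 h replicate 1 (0.107) also did. Replicates 2 stood apart, and with deviations taken from each group's mean this alone makes the other replicates deviate together. For PBS and Acute 24 h the same-numbered values were -0.242, -0.158 and 0.110. The correlations therefore cannot show that the numbers pair the samples, and the replicate block was used only as an alternative. Named genes were the 10 DEGs with the largest fold in each direction whose groups did not overlap, 12 genes of the study's subject, list members that passed (up to 6 per direction) and those of them that passed a direct test. Others are said to be named after their values were seen. The comparison, its members and the gene lists were chosen with earlier results of these data known. Intervals and floors cover counting error only. Promoter windows were matched by symbol for 129 of 184 DEGs. Some genes that passed are not reported here.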

Additional observations from a re-analysis of the deposited data

Results flagged for a closer look

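Several genes named above differed between Chronic 1 h and Acute 1 h in the direct test (edgeR, adjusted p below 0.05). Lower at Chronic 1 h were EGR1 (log2 difference -1.86), NR4A2 (-1.48), FOS (-1.40), NRARP (-0.84), HEY1 (-0.78) and ID2 (-0.66). Higher at Chronic 1 h were PER2 (1.22), TXNIP (1.18), IER3 (1.02), AL683813.2 (0.95), VCL (0.74) and SEZ6L (0.71).

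The change from PBS to Chronic 1 h also differed between 1 µM and 1 mM for 8 named genes in the test of the difference itself (edgeR). It was more positive at 1 µM for NPTX1 (1.61), HEY1 (1.30) and NEUROG2 (0.91), and the call of NEUROG2 was lost without 6 of the 15 libraries of the 1 µM experiment, each left out in turn (up to 0.123). It was more negative at 1 µM for ARRDC3 (-3.82), ADAMTS1 (-2.33), PCDHB4 (-2.17), SEZ6L (-1.27) and TNC (-1.21). No group had enough libraries for a test of single outlying values.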

How the results depend on the processing

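Of the 184 DEGs, 182 kept their sign on total gene reads, and 2 that are not named in the text had the opposite sign. Among 114 passing genes followed across the settings, 27 did not pass on total gene reads. With the replicate block, which pairs same-numbered libraries, 361 genes passed and 163 were DEGs, against 427 and 184 without it, and the calls it changed among named genes are given beside them. Genes passing numbered 945 with DESeq2, 769 with 3 groups and the block, 34 and 1102 with the 2 groups alone without and with the block, 806 and 720 on total gene reads without and with the block, 164 without both replicates 2 and 1209 without the replicates 2 of 3 groups, and 147 to 767 without single libraries. DEGs numbered 313 with DESeq2, 299 at a log2(fold change) of 0.75, 31 with the 2 groups alone, 99 without both replicates 2, and 87 to 246 without single libraries. The test against Acute 1 h gave 697 with DESeq2, 559 with 3 groups and the block, 0 with the 2 groups alone, 709 without 3 replicates 2, and 47 to 271 without single libraries. The test against Chronic 24 h gave 812, 1285 (without 3 replicates 2) and 97 to 612. The dose test gave 133 with DESeq2, 45 with only the groups compared, 25 and 26 on total gene reads without and with the block, 9 and 42 without 2 and 3 replicates 2, and 8 to 49 without single libraries. List members passing numbered 59 of 543, and 89 with DESeq2, 90 with 3 groups and the block, 12 and 114 with the 2 groups alone without and with the block, 31 and 113 without 2 and 3 replicates 2, and 29 to 82 without single libraries. Of the 20 genes with the largest folds, 2 passed with at least 10 reads in every library, 3 and 13 with the 2 groups alone without and with the block, 13 on total gene reads with the block, 6 without both replicates 2, and 6 to 20 without single libraries. The causes were not tested, beyond fewer samples or genes where the alternative removes them. Rare transcripts are limited by depth, since 3 reads per library are the floor.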
